A study of Mus musculus with 6 samples.

Results

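Control teratomas of the series are the 3 of 6 samples that received a negative control microRNA. They were chosen by their treatment label alone, and the 3 samples that received a miR-124a mimic were not analysed here. Each tumour grew under the skin of the flank of a BALB/c nude mouse after 1000000 mouse embryonic stem cells had been injected; the labels name neither the stem cell line nor its genotype. Complexes of the negative control microRNA with Atelogen QG, an injectable carrier, were given into the tumour at 15 µg in 100 µL, once every 3 days to day 28. Injections began about 10 days after the cells were placed, when tumours measured at least 100 mm3. Every tumour carried the carrier and the control microRNA, so none is an untreated teratoma. By the design each tumour came from a different mouse. Each excised tumour was divided into 2 pieces and 1 of them gave the total RNA, so a tissue that lay in the other piece would not be seen. The RNA, carrying the dye Cy3, was measured on Agilent arrays with 1 colour.

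A teratoma is a growth of disordered but differentiated tissues that pluripotent cells form when they are placed in a host that cannot reject them. It commonly holds nervous tissue, skin, muscle, cartilage, glandular and ciliated epithelium, and it can keep a remnant of undifferentiated stem cells. The nude mouse lacks a thymus and so makes few mature T cells, but it supplies vessels, blood, macrophages and other stroma to the graft. Donor and host are both mice, so their transcripts cannot be told apart on these arrays. In bulk RNA, fewer cells of a type and less RNA per cell cannot be told apart either.

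The level of a gene is log2 of its spot intensity minus the 75th percentile of that array, so 0 is the 75th percentile and a step of 1 is 2-fold. Levels are given for control 1, control 2 and control 3 in that order. A gene's position is the percentage of the 37001 genes on the array whose mean level was no higher. Probes differ in how well they hybridise, so a position ranks probe signals and is not an order of transcript abundance. A signal was called well above background by the scanner software, and a gene is called detected where its signal was. Of 37001 genes, 22363 (60.4%) were well above background in all 3 tumours, as were 15743 of 20178 genes with a gene symbol (78%). Genes of the olfactory receptor family, which most tissues do not use, passed in 51 of 1106 cases (4.61%). The 43 marker lists hold 535 genes on the array, and 444 of them (83.0%) passed in all 3 tumours, 40 in only 1 or 2, and 51 in none. A list's count of detected genes is to be read beside the 78% of genes with a symbol. The arrays had 35992 to 37304 probes well above background and 0 saturated spots. Control 2 had the fewest such probes, and the 99th percentile of its negative control spots stood at -5.90, against -7.25 in control 1 and -7.34 in control 3.

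**Figure D1:**
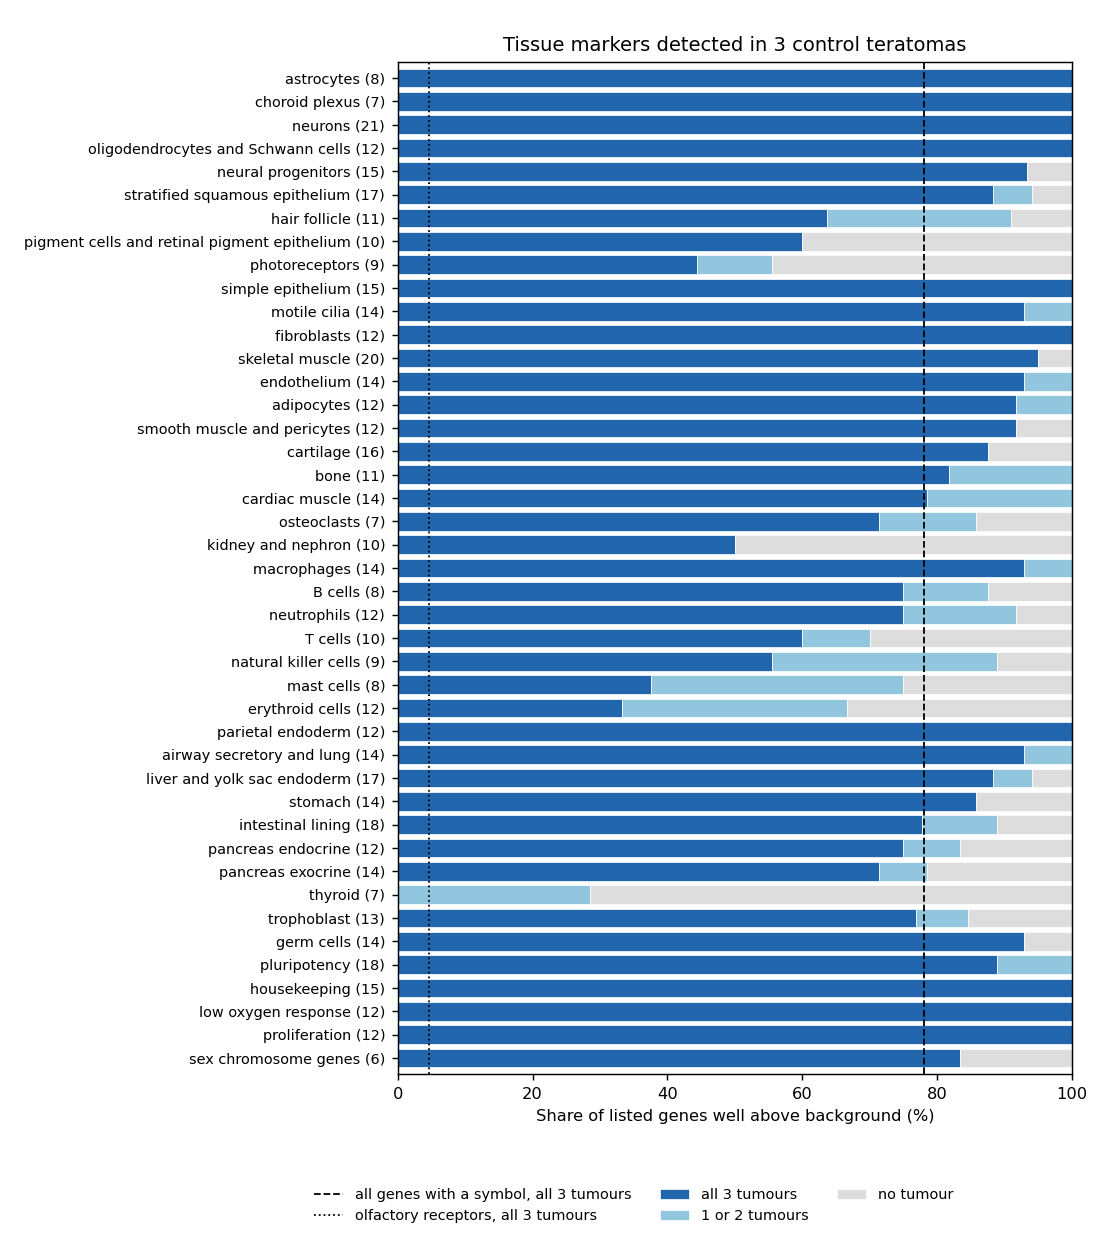
Share of each marker list's genes (number on the array in brackets) whose signal was well above background in all 3, in 1 or 2, or in none of the control tumours. All listed genes of neurons, astrocytes and fibroblasts were detected in all 3 tumours, while 0 of 7 thyroid genes were; the dashed line marks the 78% of genes with a symbol and the dotted line the 4.61% of olfactory receptors.

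Nervous tissue was represented by nearly every marker examined, at similar levels in the 3 tumours. All 21 neuron genes were well above background in all 3 tumours, and their median position was 92.5%. Tubb3, a tubulin of neurons (probe on chromosome 8, 125945701 to 125945760, build mm9 as for all probe positions here), stood at 3.40, 3.56 and 3.54 (mean 3.50 ± 0.09, SD, n = 3). Map2, which binds dendritic microtubules, stood at 4.04, 3.81 and 3.81. Rbfox3, the splicing factor known as NeuN, stood at 2.23, 2.05 and 1.76. The 3 tumours lay within 0.47 of each other for each of these genes, which is less than a 1.5-fold difference. Both excitatory and inhibitory transmitter genes were present. Slc17a6, a vesicular glutamate transporter, stood at -0.30, 0.13 and -0.12. Slc32a1, the vesicular transporter of GABA and glycine, stood at 3.59, 4.24 and 3.25, and Gad2, which makes GABA, at 0.86, 1.39 and 0.45. Control 2 was highest and control 3 lowest for these 2 inhibitory genes, by 2.0-fold and 1.92-fold. Th, the first enzyme of dopamine synthesis, was also detected in every tumour, at 0.28, 1.09 and 0.95.

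Neural progenitor genes were detected in 14 of 15 cases. Nes, an intermediate filament of progenitors, stood at 2.47, 2.67 and 2.47, and the eye and brain transcription factor Pax6 at -1.20, -1.21 and -1.18. Sox1, a transcription factor of the neural plate, stood at -1.07, -0.70 and -0.33. Neurog2, a proneural factor, differed most in this list, with -2.84, -2.35 and -1.20, a 3.12-fold difference between control 3 and control 1. Otx1 was not well above background in any tumour. Glia were present as well. Gfap, the filament of astrocytes, stood at 3.50, 3.23 and 3.06, and the water channel Aqp4 at 2.76, 2.82 and 2.28. All 8 astrocyte genes were detected and control 3 was lowest in 7 of them (35.8% of all genes). All 12 genes of oligodendrocytes and Schwann cells were detected. The myelin gene Mbp stood at 1.62, 1.35 and 1.19 with its brightest probe. Its other probes were highest in control 2, with -1.75, -1.35 and -1.85, and with -1.55, -0.83 and -1.92. Mobp, another myelin gene, was 4.59-fold higher in control 2 than in control 3 (-3.85, -2.33 and -4.53).

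Of structures beside the brain, markers of the choroid plexus were detected in 7 of 7 cases, while those of pigment and photoreceptor cells were detected in part. Ttr, a carrier protein made by choroid plexus and also by liver and yolk sac, stood at 4.0, 3.85 and 3.73. Otx2, a factor of forebrain, choroid plexus and retina, was 2.01-fold higher in control 3 (2.02) than in the lowest tumour (1.02 in both others). For pigment cells, 6 of 10 genes were detected: Mitf stood at 0.65, 0.50 and 0.39 and Dct at -3.39, -3.57 and -3.75, while the pigment enzymes Tyr and Tyrp1 were not well above background in any tumour. The photoreceptor factor Crx stood at -2.70, -2.84 and -2.86, and 4 of 9 photoreceptor genes were detected in all 3.

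**Figure D2:**
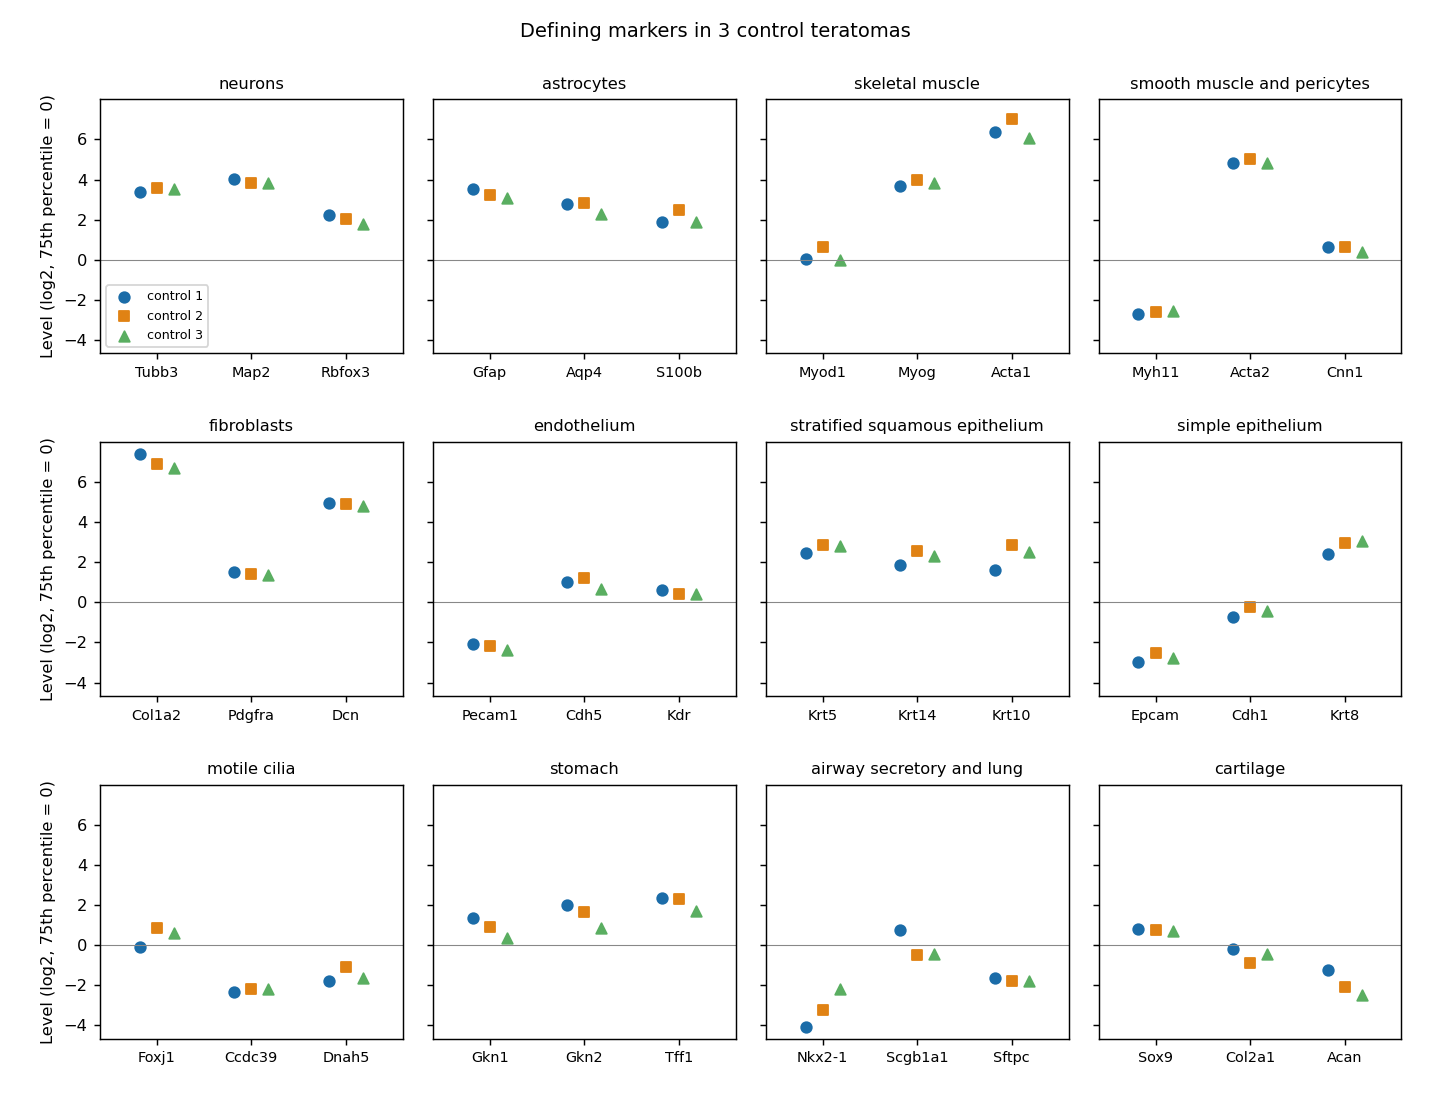
Levels (log2, with 0 at the 75th percentile of each array) of the first 3 markers of 12 lists, with 1 symbol per control tumour. Neuron, smooth muscle and fibroblast markers overlap closely, whereas Krt10 (1.63, 2.89 and 2.53), Nkx2-1 (-4.10, -3.26 and -2.21) and Acan (-1.24, -2.07 and -2.48) spread over more than 1.

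Skeletal muscle gave some of the brightest signals on the arrays. Of 20 genes, 19 were well above background in all 3 tumours, with a median position of 96.1%. Tnnc2, the calcium-binding troponin of fast fibres (chromosome 2, 164602661 to 164602720), stood at 7.88, 8.18 and 7.63, and its mean signal ranked 11 of 37001 genes. Tnni2, the inhibitory troponin of fast fibres, ranked 18 (7.68, 8.19 and 7.51), and Myh8, the perinatal myosin heavy chain, ranked 20 (7.88, 7.99 and 7.43). Regulators and embryonic forms were present beside these contractile genes. The myogenic factors Myod1 (0.02, 0.62 and -0.02) and Myog (3.69, 3.99 and 3.84), the embryonic myosin Myh3 (5.72, 5.70 and 5.26) and the satellite cell factor Pax7 (0.14, 1.07 and 0.76) were detected in every tumour, whereas Myf5 was not well above background in any. Control 2 was highest in 17 of the 19 detected genes, where it was highest in 35.5% of all genes, and control 3 was lowest in 16 (35.8% of all genes). The differences were small: Ckm, the muscle creatine kinase, had the widest range, with 2.70, 3.51 and 2.54, or 1.96-fold, and Acta1, skeletal actin, stood at 6.35, 7.03 and 6.07. With the probe used for each gene, none of the list spread over more than 2-fold. Dimmer probes of Myh8 had ranges of 0.18, 0.81 and 2.12, the last with 1.81, 2.70 and 0.58.

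Smooth muscle, fibroblast and most vessel markers were as steady with the probe used for each gene. Other probes of Acta2 had ranges of 1.07 and 0.10, and other probes of Col1a2 had ranges of 1.11 and 1.12. Of 12 smooth muscle and pericyte genes 11 were detected, among them Acta2 (4.82, 5.05 and 4.84), Cnn1 (0.61, 0.64 and 0.38) and Myh11 (-2.72, -2.60 and -2.58). All 12 fibroblast genes were detected, among them the collagen chain Col1a2 (7.42, 6.92 and 6.71), the growth factor receptor Pdgfra (1.51, 1.43 and 1.35) and the proteoglycan Dcn (4.94, 4.89 and 4.81). Control 1 was highest in 11 of these 12 (30.3% of all genes), with the widest range in Thy1, at 5.21, 4.66 and 4.28. Endothelium was detected through 13 of 14 genes in all 3 tumours. The junction proteins Pecam1 (-2.09, -2.20 and -2.40) and Cdh5 (1.00, 1.22 and 0.67) and the VEGF receptor Kdr (0.59, 0.43 and 0.44) lay within 0.55. Lyve1, a receptor of lymphatic vessels and of some macrophages, was detected in 2 tumours (-4.39, -5.95 and -4.87).

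Cartilage and bone markers were present at moderate signal. Of 16 cartilage genes 14 (87.5%) were detected in all 3 tumours, against 78% of genes with a symbol. Sox9, the master factor of cartilage, stood at 0.78, 0.74 and 0.69, the main cartilage collagen Col2a1 at -0.22, -0.90 and -0.45, and the proteoglycan Acan at -1.24, -2.07 and -2.48. Col10a1, the collagen of hypertrophic cartilage, was 2.4-fold higher in control 1 than in control 2 (-3.57, -4.83 and -4.42), and Col11a2 was 2.66-fold higher in control 2 than in control 1 (-4.54, -3.13 and -4.08). Of 11 bone genes 9 (81.8%) were detected in all 3, near the share of genes with a symbol. Sp7, a factor of osteoblasts, stood at -1.12, -1.40 and -1.50. Bglap, osteocalcin, was lowest in control 1 (-4.76, -2.78 and -3.34), while Spp1, osteopontin, a matrix protein also made by macrophages, was highest there (4.06, 2.28 and 3.29). Bone genes were thus highest in different tumours. Of 7 osteoclast genes 5 (71.4%) were detected in all 3, no more than the share of genes with a symbol. Among the 5 were Acp5, the phosphatase TRAP (2.17, 2.13 and 2.18), and the protease Ctsk (2.66, 1.89 and 2.37), both of which macrophages can also make. Mmp9 was another (-4.63, -4.24 and -4.38). Calcr, the calcitonin receptor, was 2.28-fold higher in control 2 than in control 1 (-1.46, -0.27 and -0.68). Fat was detected through 11 of 12 genes in all 3 tumours, and 7 of the 12 spread over more than 2-fold, against 12.1% of all genes well above background in at least 1 tumour. Cfd, the serum protease adipsin, was 4.21-fold higher in control 1 than in control 2 (0.53, -1.54 and -0.09), and a second probe of this gene gave the same order (-0.27, -2.31 and -0.90). Adipoq, adiponectin, stood at -2.32, -3.83 and -3.68, whereas Pparg, the regulator of fat cell formation, was level at -0.94, -1.03 and -1.0. The thermogenic gene Ucp1 was detected in every tumour (-3.14, -3.00 and -4.11).

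Heart muscle genes divided the tumours. Genes that embryonic skeletal muscle shares with the heart were level: Tnnt2, cardiac troponin T, stood at 3.64, 3.79 and 3.81 and Actc1, cardiac actin, at 4.54, 4.83 and 4.44. Several genes more restricted to heart muscle were higher in control 1 and control 3 than in control 2. Myl7, the atrial regulatory light chain, stood at 1.88, -2.39 and 1.60, so that control 1 was 19.3-fold above control 2. Myh6, the alpha cardiac myosin heavy chain (chromosome 14, 55560774 to 55560833), stood at 2.40, -1.23 and 2.46 (1.21 ± 2.12, SD, n = 3), a 13-fold difference. All 3 signals were well above background for both genes. Tnni3, cardiac troponin I, followed with -1.42, -2.89 and -1.18, and its second probe with -1.99, -4.03 and -1.86. The cardiac transcription factor Tbx20 was lowest in control 2, where it was not well above background (-3.60, -5.96 and -5.0), but Nkx2-5 was not lower there (-4.24, -4.11 and -3.66). Nor were Nppa, the atrial natriuretic peptide (-2.88, -2.87 and -2.88), and Hcn4, a pacemaker channel (-4.57, -4.14 and -4.50). Over the 14 genes of the list, 7 spread over more than 2-fold (12.1% of all genes) and control 2 was lowest in 8 (31.5% of all genes).

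Skin-type and internal epithelia were found in all tumours. Krt5 (2.46, 2.85 and 2.82) and Krt14 (1.85, 2.55 and 2.33), the keratins of basal squamous cells, were detected beside Krt10 (1.63, 2.89 and 2.53) and Krt1 (-0.57, 0.69 and 0.60), the keratins of cells that have left the basal layer, and Lor, loricrin of the cornified layer (2.85, 3.93 and 3.39). Krt10, Krt1 and Lor were 2.38-fold, 2.4-fold and 2.11-fold lower in control 1 than in control 2. Of the 16 squamous genes detected in at least 1 tumour, control 2 was highest in 13 (35.5% of all genes). Control 1 was lowest in 13 (32.8% of all genes). Ivl, involucrin, was not well above background in any tumour. In simple epithelium control 1 was again mostly lowest, while control 2 was highest in 12 genes and control 3, as for Krt8, in 3. Krt8 stood at 2.43, 2.97 and 3.06, Cdh1 at -0.73, -0.24 and -0.42 and Epcam at -3.00, -2.54 and -2.75. All 15 genes were detected, and control 1 was lowest in 14 (32.8% of all genes). The tight junction gene Cldn3 (-1.03, 0.05 and -0.24) and the trafficking gene Rab25 (-2.14, -1.06 and -1.75) had the widest ranges, 2.1-fold and 2.11-fold.

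Motile cilia, which beat on airway, oviduct and ependymal cells, were detected in all 3 tumours through the 13 genes of the list left without the probe listed as Spag6. Their master factor Foxj1 stood at -0.08, 0.87 and 0.61, the axonemal gene Ccdc39 at -2.37, -2.18 and -2.19 and the dynein gene Dnah5 at -1.81, -1.09 and -1.63. Control 2 was highest in 12 of the 13 genes (35.5% of all genes) and control 1 lowest in 12 (32.8%). Sntn, a protein of the ciliary tip, had the widest range, with -4.45, -3.00 and -3.69. The probe listed as Spag6 is placed on chromosome 16 by the array annotation (build mm9), not on the gene's chromosome 2 in RefSeq. It was not read as that gene or counted in this paragraph. The totals over all lists, the list scores and the figures still include it.

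Mucus and airway genes were among the brightest of the endoderm. Muc5b, a gel-forming mucin, stood at 3.36, 4.69 and 3.76, at position 96.0%. Bpifa1 (1.11, 3.14 and 2.22) and Bpifb1 (1.59, 3.42 and 2.72), secreted by airway and oral glands, were 4.07-fold and 3.55-fold higher in control 2 than in control 1. Second probes of Bpifb1 and Muc5b gave the same order, with ranges of 1.76 and 1.30. The club cell protein Scgb1a1 was highest in control 1 instead (0.73, -0.50 and -0.44). The alveolar surfactant genes Sftpc (-1.64, -1.82 and -1.79) and Sftpb (-1.46, -2.31 and -2.79) were detected in every tumour. Nkx2-1, a factor of lung, thyroid and ventral forebrain, was highest in control 3 (-4.10, -3.26 and -2.21, or 3.7-fold).

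Stomach markers were detected in 12 of 14 cases (85.7%, against 78% of genes with a symbol). The gastrokines Gkn1 (1.36, 0.91 and 0.38) and Gkn2 (2.01, 1.63 and 0.83) and the trefoil factor Tff1 (2.33, 2.31 and 1.68), secreted by the surface cells of the stomach, were lowest in control 3. The mucin Muc5ac (-3.69, -1.97 and -2.93) and the trefoil factor Tff2 (1.36, 2.59 and 1.53) were highest in control 2. Genes of acid secretion were dimmer but detected, with Atp4a at -3.02, -3.44 and -3.40, whereas the hormone gene Gast was not well above background in any tumour. For the intestine, Vil1 (-2.93, -3.51 and -3.57) and Fabp2 (-2.83, -2.90 and -2.30), both of absorptive cells, were detected in every tumour, but the intestinal master factor Cdx2 in none. Agr2, needed for mucin folding, stood at 0.77, 1.99 and 1.47. Of 14 exocrine pancreas genes 10 (71.4%) were detected in all 3 tumours, against 78% of genes with a symbol. The enzyme genes Prss1 (-4.85, -5.15 and -5.02) and Cpa1 (-2.75, -2.89 and -3.19) were dim but detected. The pancreatic factors Pdx1 and Ptf1a were not well above background in any tumour. Ctrb1, a chymotrypsinogen, was 3.49-fold higher in control 2 than in control 1 (-4.39, -2.58 and -3.63). Of the hormones, Sst, somatostatin, which neurons also make, was bright at 3.17, 3.88 and 2.86; Ins2 stood at -3.92, -3.92 and -4.46, Gcg at -3.74, -2.99 and -4.20, and Ins1 was detected in 1 tumour.

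Of the genes of fetal liver and yolk sac, Afp, Alb and Ahsg were highest in control 3. Afp, alpha-fetoprotein, stood at -1.57, -1.57 and 1.33, so that control 3 was 7.46-fold above the lowest tumour. Alb, albumin, stood at -3.81, -3.47 and -1.10, and a second probe gave -4.77, -4.95 and -1.92. Ahsg, a plasma protein of fetal liver, stood at -3.66, -2.68 and -1.51. Over the whole list, with these 3, control 3 was highest in 7 of 16 genes (34.2% of all genes) and control 1 in 7 (30.3%). Apob was lowest in control 2, where it was not well above background (-4.02, -5.67 and -4.23). Parietal endoderm genes, several of them basement membrane proteins that many cells make, were level, with Sparc (7.89, 7.82 and 7.55) at rank 23, Lamb1 at 3.23, 3.59 and 3.48 and Thbd at -0.78, -0.21 and -0.30.

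Thyroid genes were mostly not detected, and kidney genes in part. No gene of the thyroid list was detected in all 3 tumours; Tg and Duox2 passed in 2 tumours each, and Tshr in none. Of 10 kidney and nephron genes, 5 were detected in all 3 tumours and the other 5 in none. The glomerular gene Nphs1 and the tubular gene Umod were not well above background in any tumour. Wt1, which podocytes share with mesothelium and gonad, was detected at -3.27, -4.87 and -4.19 and Six2, a factor of nephron progenitors and other mesenchyme, at -3.39, -2.03 and -2.43. The other detected genes were Pax2 (-4.12, -3.82 and -3.57), a factor of the developing kidney and nervous system, the collecting duct water channel Aqp2 (-4.60, -4.36 and -4.43) and Podxl (-3.54, -3.39 and -3.38), which podocytes share with vessels.

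**Figure D3:**
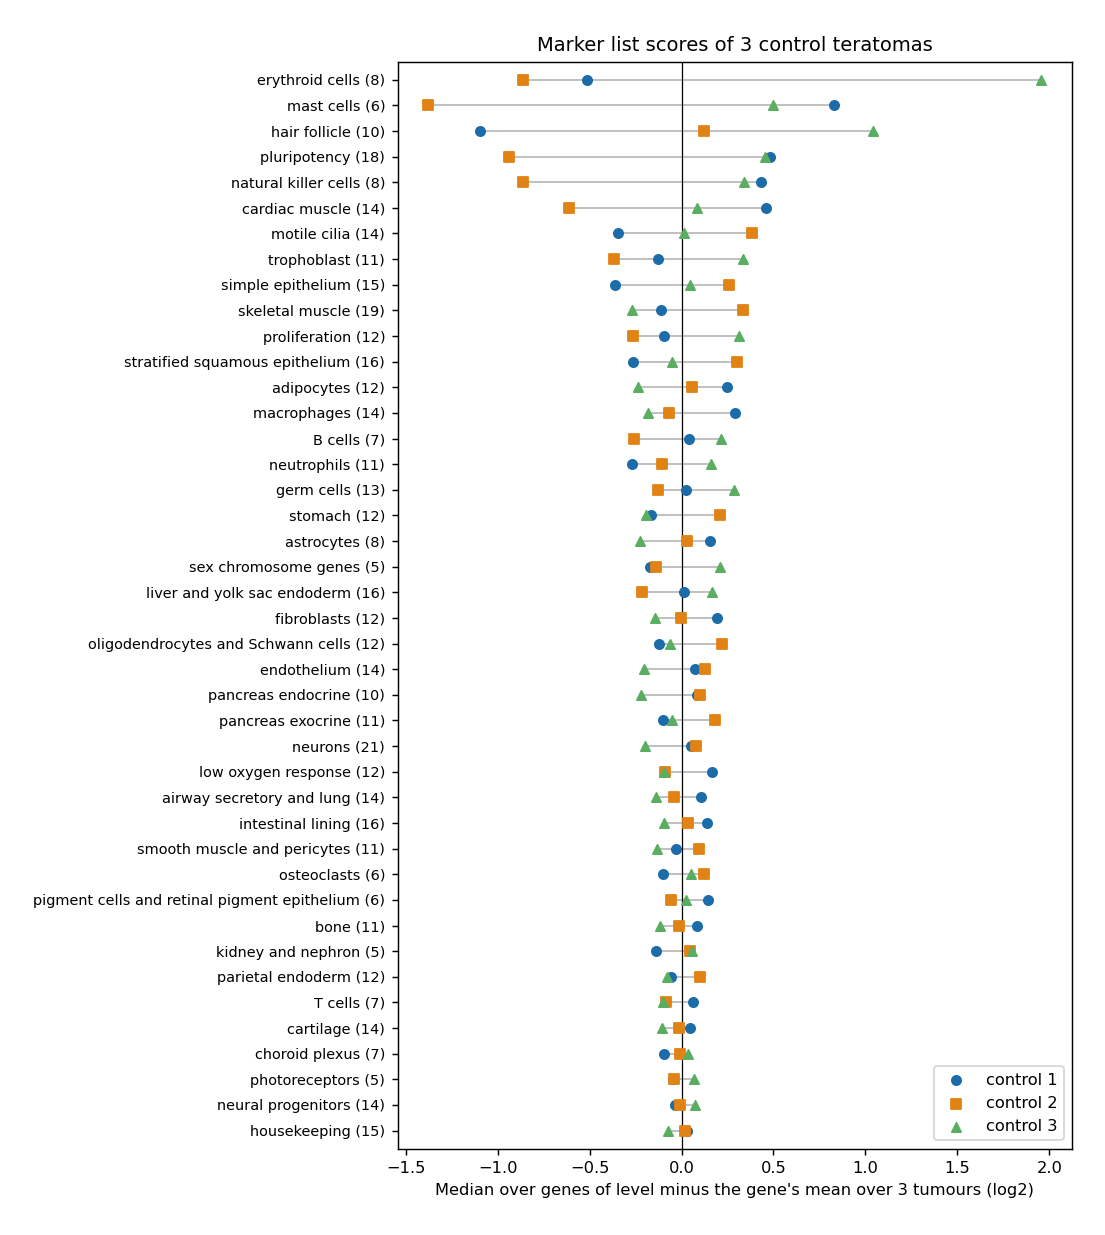
Score of each list in each control tumour: the median over its detected genes (number in brackets) of the level minus that gene's mean over the 3 tumours, on the log2 scale. Erythroid, mast cell, hair follicle and pluripotency lists spread furthest, by 2.82, 2.20, 2.13 and 1.42, and the housekeeping list by 0.10; with genes detected in all 3 tumours the mast cell range was 0.16.

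A score was set for each list and tumour as the median over detected genes of the level minus the gene's own mean. Its range over the 3 tumours was above 0.5 in 12 of 42 lists with at least 3 such genes. The same gene spotted 10 times on an array had a median SD of 0.05, and the 15 housekeeping genes had a median range of 0.21 between tumours, with 0 of 15 above 1. Actb stood at 7.86, 7.89 and 7.75, Gapdh at 7.61, 7.68 and 7.46 and Tfrc, the widest of the list, at 0.76, 0.50 and 0.40. Of the 484 list genes detected in at least 1 tumour, 123 (25.4%) spread over more than 2-fold, against 12.1% of all such genes. Dim genes spread more: 39.9% of genes with a mean level under -4 did so, and 1.42% of those above 2. Where a gene with a range above 1 had other probes well above background in all 3 tumours, 212 of 277 such probes (76.5%) were highest in the same tumour, against 56.9% over all genes.

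**Figure D4:**
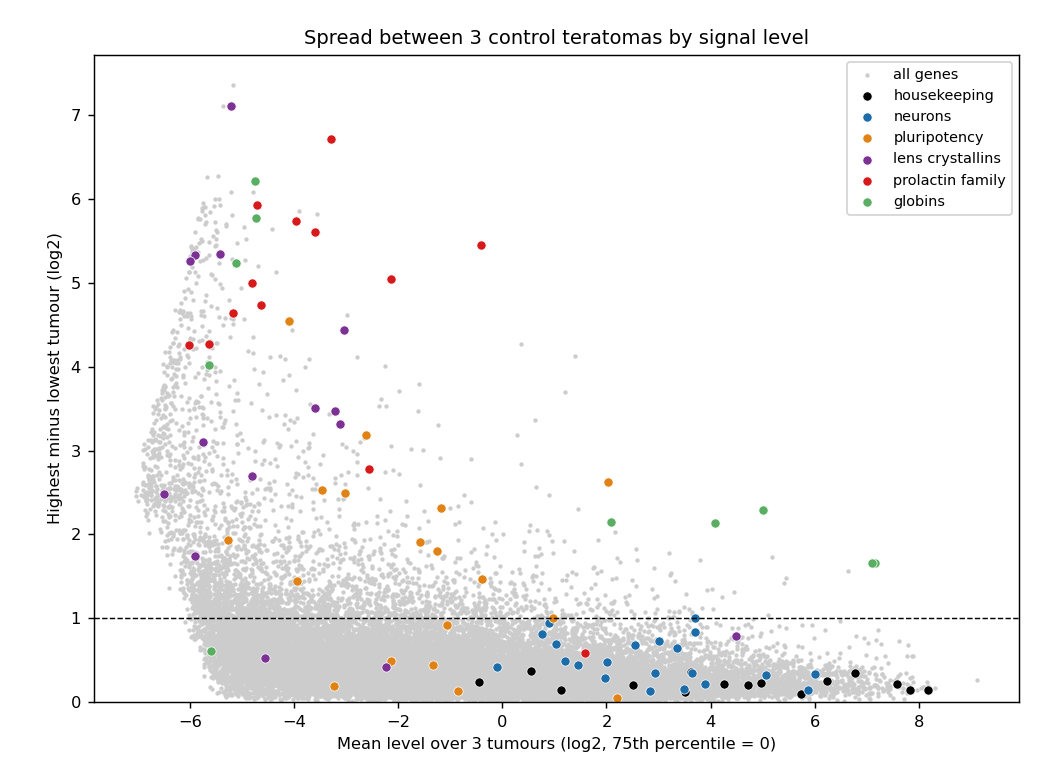
Highest minus lowest tumour (log2) against the mean level of each gene well above background in at least 1 control tumour, with the line at a range of 1. Housekeeping and neuron genes lie at or under the line, whereas 12 of 13 detected prolactin genes and 9 of 10 detected globin genes lie above it. Of all genes shown, 12.1% lie above the line.

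Red cell genes differed most among the lists, and control 3 was highest in all 8 that were detected (34.2% of all genes). Hbb-y and Hba-x entered that count through control 3 alone. The adult globin gene Hba-a1 stood at 7.12, 6.35 and 8.01, and its second probe at 4.16, 3.45 and 5.44. Hbb-b1 stood at 2.07, 1.03 and 3.17 and Alas2, the heme synthesis enzyme of red cells, at -0.46, -1.05 and 1.09. These 3 genes were 3.17-fold, 4.42-fold and 4.43-fold higher in control 3 than in control 2, and control 1 lay between. The embryonic globins, which the first red cells of the yolk sac make, were well above background in few tumours other than control 3. Hbb-y stood at -5.41, -7.52 and -1.30 and was detected in control 3 alone, at least 17.3-fold above either other tumour. Hbb-bh1 stood at -5.09, -7.44 and -1.67, at least 13.6-fold higher in control 3 than in control 2, where it was not well above background, and 10.8-fold higher than in control 1. Hba-x was detected in control 3 alone (-7.67, -5.58 and -3.64), at least 3.46-fold above the others. Ahsp, which stabilises alpha globin, stood at -5.53, -4.18 and -1.43, and the anion exchanger Slc4a1 at -4.46, -3.61 and -1.14. The red cell transcription factors Gata1 and Klf1 were not well above background in any tumour, nor was the membrane skeleton gene Epb42. Adult alpha globin genes Hba-a1 and Hba-a2 are near-identical copies, and the signal of a probe may include the other gene.

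The starts of 2 of these embryonic globin genes are shown because the genes were detected in control 3 alone. They come from RefSeq windows of 300 bases on build GRCm38.p6, most of which lies before the start of the gene, read 5′ to 3′ on the strand of the gene. Capitals mark GATAA and CACCC on either strand, the letters of the GATA and Krüppel-like factor motifs known from globin promoters. Hbb-y lies at chr7:103853158-103853457 on the minus strand and Hba-x at chr11:32276350-32276649 on the plus strand.
Hbb-y: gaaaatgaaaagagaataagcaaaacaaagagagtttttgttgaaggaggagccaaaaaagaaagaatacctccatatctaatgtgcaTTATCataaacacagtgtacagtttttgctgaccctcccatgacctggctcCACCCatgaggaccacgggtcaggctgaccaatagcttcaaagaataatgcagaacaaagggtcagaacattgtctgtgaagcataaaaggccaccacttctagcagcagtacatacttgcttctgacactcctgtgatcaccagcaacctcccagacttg
Hba-x: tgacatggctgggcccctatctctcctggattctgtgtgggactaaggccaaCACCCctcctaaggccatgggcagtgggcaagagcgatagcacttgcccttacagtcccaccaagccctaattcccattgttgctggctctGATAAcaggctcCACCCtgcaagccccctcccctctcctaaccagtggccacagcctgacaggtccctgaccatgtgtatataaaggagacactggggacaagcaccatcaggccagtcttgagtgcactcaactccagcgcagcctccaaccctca
The Hbb-y window held 1 GATAA and 1 CACCC, and the Hba-x window 1 and 2. Of 32851 windows of this length, 25.4% held GATAA and 57.5% held CACCC, so neither is rare, and a match is not evidence of binding.

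Most detected trophoblast genes, of the outer lineage that forms the placenta, were also highest in control 3. Prl3d1, placental lactogen of trophoblast giant cells (chromosome 13, 27192036 to 27192095), stood at -2.26, -4.58 and 0.46 with all 3 signals well above background, 32.9-fold higher in control 3 than in control 2. Prl3b1, a later placental lactogen, stood at -3.50, -3.46 and -0.72. Hand1, a factor of giant cells and of early mesoderm, was detected in control 3 alone (-6.51, -6.62 and -4.09). Ascl2 was highest in control 1, Elf5 and Krt7 in control 2, and Cdx2 was not well above background in any tumour. The next count holds Hand1, which passed through control 3 alone. Over the list without the probe named Gcm1, control 3 was highest in 7 of 10 genes (34.2% of all genes). That probe was bright in every tumour (5.94, 5.82 and 5.43). The array annotation places it on chromosome 7 and RefSeq places the gene on chromosome 9, so its signal was not read as that gene. The totals over all lists, the list scores and the figures still include it. Without it the trophoblast scores were -0.17, -0.54 and 0.57, in place of -0.13, -0.37 and 0.33. The prolactin family, which rodents have expanded for the placenta, was then examined by gene name, a choice made after these values were seen. Of its 23 genes on the array 12 were well above background in control 3, 10 in control 1 and 4 in control 2. The shares of all genes were 64.1%, 64.5% and 62.6%, so in no tumour did the family exceed that share. Control 3 was highest in 12 of the 13 detected anywhere (34.2% of all genes). Prl2b1, Prl2c3 and Prl8a9 passed in control 3 alone, so the filter fixed their place in that count. Prl2c5 stood at -0.85, -2.92 and 2.53, a 43.8-fold difference between control 3 and control 2. Prl3d2, which is closely similar to Prl3d1, stood at -2.98, -6.79 and -0.08, Prl7a1 at -4.67, -7.69 and -1.76 and Prl2a1 at -3.34, -6.52 and -0.91. Several members of this family are similar in sequence, so that signals of single members may be shared.

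**Figure D5:**
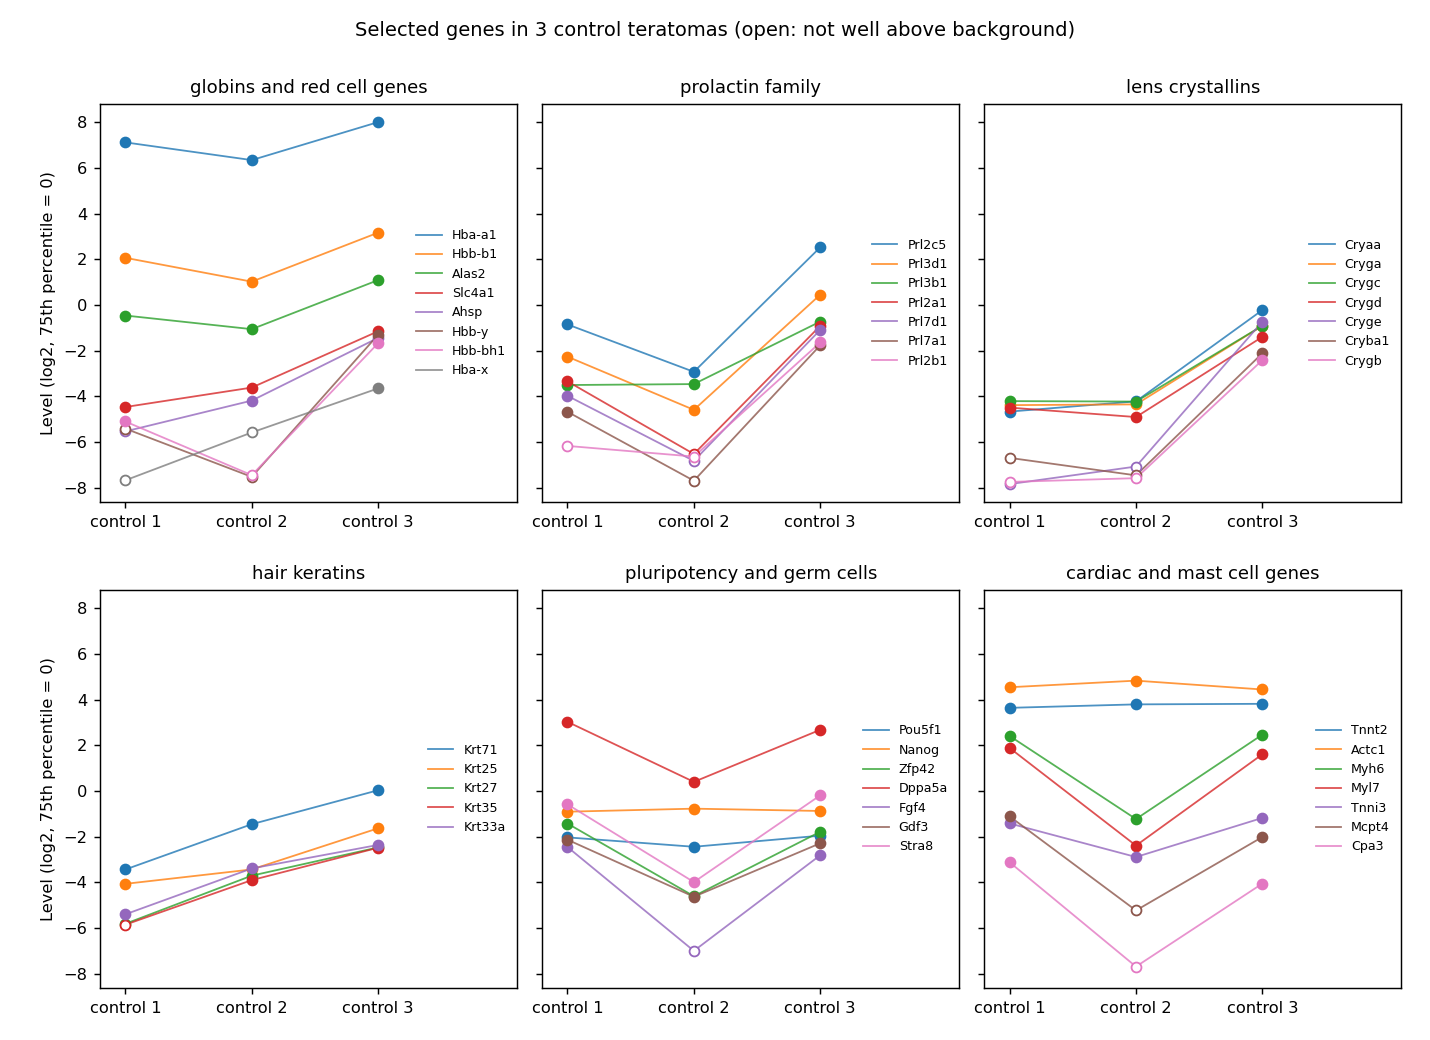
Levels (log2, with 0 at the 75th percentile) of selected genes in the 3 control tumours, which have no order; lines join the values of 1 gene and open points were not well above background. The globin, prolactin, crystallin and hair keratin genes shown peak in control 3, while Zfp42, Stra8, Myh6, Myl7, Mcpt4 and Cpa3 are lowest in control 2. Some members not shown go the other way. Cryab and Krt85 were highest in control 2, and Hbb-bh2 and Prl8a1 in control 1.

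Of the 10 hair follicle genes detected in at least 1 tumour, 7 were detected in all 3, and the keratins among them had their highest signal in control 3. Krt71, a keratin of the inner root sheath (chromosome 15, 101564426 to 101564485), stood at -3.44, -1.46 and 0.03, 11.1-fold higher in control 3 than in control 1. Krt25 stood at -4.07, -3.44 and -1.64, and Krt27 at -5.82, -3.71 and -2.47 without being well above background in control 1. The hair shaft keratin Krt35 was at least 8.53-fold higher in control 3 than in control 1 (-5.86, -3.90 and -2.49). Control 3 was highest in 8 of the 10 detected genes (34.2% of all genes) and control 1 lowest in 8 (32.8%). Hoxc13, a hair factor, was detected in control 2 alone (-7.84, -4.34 and -7.83). Keratin-associated proteins of hair were looked up by name after the values were seen. Of 55 genes, 34 were well above background in control 3, 24 in control 2 and 21 in control 1. The shares of all genes were 64.1%, 62.6% and 64.5%, so in no tumour did the family exceed that share. Some members passed in control 3 alone at dim levels there, such as Krtap6-1 (-5.11) and Krtap1-4 (-5.10).

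Undifferentiated stem cell genes were lower in control 2 than in the other tumours. All 18 pluripotency genes were detected in at least 1 tumour and 16 in all 3. Control 2 was lowest in 15 of the 18 (31.5% of all genes), and 12 spread over more than 2-fold (12.1% of all genes). Zfp42, known as Rex1 and a marker of naive stem cells (chromosome 8, 44380667 to 44380726), stood at -1.43, -4.61 and -1.79 (-2.61 ± 1.74, SD, n = 3), 9.07-fold higher in control 1 than in control 2. Dppa5a stood at 3.02, 0.40 and 2.68. Fgf4, an autocrine factor of stem cells, stood at -2.46, -7.0 and -2.81 and was not well above background in control 2, at least 7.88-fold below control 1. Tdh, a metabolic enzyme of mouse stem cells, stood at -0.37, -2.69 and -0.48, and the TGF-beta family ligand Gdf3 at -2.14, -4.63 and -2.29. The central factors differed less. Pou5f1, known as Oct4, stood at -2.03, -2.45 and -1.96, also lowest in control 2, by 1.40-fold, whereas Nanog stood at -0.91, -0.78 and -0.88, Klf4 at 2.21, 2.18 and 2.23 and Sall4 at -3.14, -3.20 and -3.33. Pou5f1 and Nanog have copies elsewhere in the genome whose signal a probe may include.

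Some germ cell genes had the same low value in control 2. Stra8, which retinoic acid induces at entry to meiosis, stood at -0.59, -3.99 and -0.19, 13.9-fold lower in control 2 than in control 3. Dazl stood at -3.57, -5.17 and -2.47 and Dppa3, known as Stella, at -3.09, -5.07 and -2.77. Ddx4, the germ cell helicase known as Vasa, was level at -4.0, -3.82 and -3.47, as were Sycp3 (-3.58, -3.92 and -3.32) and Nanos3 (0.29, 0.25 and 0.24). Of 13 detected genes, control 2 was lowest in 7 (31.5% of all genes). Genes of cell division were detected in all 12 cases. Control 3 was highest in all 12 (34.2% of all genes) and control 2 lowest in 11 (31.5%). Mki67 stood at 2.67, 2.52 and 3.09, Top2a at 1.69, 1.58 and 2.26 and Cdk1 at -1.16, -1.43 and -0.86. With the probe used for each gene, each of the 12 spread over less than 2-fold. The widest range was in Mcm2, a subunit of the replicative helicase (0.86, 0.67 and 1.63). Dimmer Top2a probes, also highest in control 3, had ranges of 0.78, 1.21 and 1.28. A second Birc5 probe was highest in control 1 instead (-1.33, -1.46 and -1.68).

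Macrophages were the clearest immune population. Of 14 genes 13 were detected in all 3 tumours. Adgre1, known as F4/80, stood at 0.67, 0.35 and 0.12, the receptor Csf1r at 2.95, 2.96 and 2.57 and Cd68 at 1.95, 1.62 and 1.58. Control 1 was highest in 12 (30.3% of all genes) and control 3 lowest in 11 (35.8%). Ranges were up to 0.64 in the genes detected in all 3. Cd163 was detected in 2 tumours (-3.86, -5.75 and -4.36). For neutrophils, S100a8 (0.04, 0.22 and 0.71) and S100a9 (1.86, 2.26 and 2.30), which squamous cells also make, were detected, but Ly6g was not well above background in any tumour. Camp, an antimicrobial peptide of neutrophil granules, was 3.62-fold higher in control 3 than in control 1 (-3.67, -3.57 and -1.81).

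Several mast cell proteases were low in control 2. Mcpt4, a chymase of connective tissue mast cells, stood at -1.12, -5.23 and -2.02 and was at least 17.4-fold higher in control 1 than in control 2, where it was not well above background. Cma1, another chymase, stood at -2.55, -6.27 and -3.09, and the carboxypeptidase Cpa3 at -3.12, -7.69 and -4.06. Tpsb2, a tryptase, was detected in every tumour (-2.05, -2.74 and -2.06), and Kit, a receptor shared with germ cells, was level (0.76, 0.60 and 0.41). The chain of the IgE receptor Fcer1a was not well above background in any tumour. Hdc, which makes histamine, was highest in control 2 (-0.09, 1.12 and 0.59). The score of the list spread over 2.20, but over 0.16 with genes detected in all 3 tumours, which leaves out Mcpt4, Cma1 and Cpa3, and over 0.51 with normexp background correction and quantile scaling.

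Lymphoid genes were mixed. Cd3e stood at -1.63, -1.31 and -1.99, Cd3d at -4.92, -5.62 and -4.61 with detection in 2 tumours, and Cd3g, Cd8a and Cd8b1 were not well above background in any. A second probe of Cd3e stood near the floor, at -5.02, -4.72 and -5.22. Cd4, which some myeloid cells also carry, stood at -0.75, -0.69 and -1.0. The B cell gene Cd79b was detected in every tumour (-2.68, -2.85 and -3.08), whereas Cd79a was detected in 1 and Blk in none. Of natural killer cell genes, Ncr1, the defining receptor, was not well above background in any tumour, while Klrb1c stood at 1.11, 0.60 and 0.29. Control 2 was lowest in 7 of 8 detected genes (31.5% of all genes). Among them was the granzyme Gzmb, which was not well above background there (-5.13, -7.72 and -4.93). For 3 of these 8 genes the signal was near or below background in at least 1 tumour, so the size of the difference is not known.

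Genes of the response to low oxygen were detected in all 12 cases without a wide spread. Vegfa stood at 2.10, 1.92 and 1.75, Car9 at -1.15, -1.59 and -1.73 and the glucose transporter Slc2a1 at 3.46, 2.81 and 3.65. Control 1 was highest in 8 of the 12 (30.3% of all genes), and none spread over more than 2-fold (12.1% of all genes).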

How the data were processed

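The deposited spot intensity was made, per the file headers and the submitters' processing notes, with Agilent Feature Extraction 11.5.1.1 (gProcessedSignal), which corrected for background and replaced low values by surrogates; the software also set the flags for signals well above background. The authors' value table holds log2 values, which differed from the scaled log2 intensity used here by a constant per array (0.49, 0.51 and 0.50, SD of the difference 0.0029; column medians -2.98, -3.07 and -2.98). Its scale is log2, its direction is that of signal, and it is not centred per gene.

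The log2 of each array's 75th percentile intensity (279, 280 and 292) was subtracted from the log2 intensities. The 62976 spots of an array (59305 not control spots) were averaged to 56605 probes; 21 flagged probes were left out. A gene was its probe well above background on the most arrays and, among ties, the brightest. Names came from RefSeq (GRCm38.p6) by accession for 32994 probes, by symbol for 10224 and by an older symbol for 520; 12867 kept the name in the file. Of 535 list genes 532 had a probe on the chromosome RefSeq gives. A fold with a tumour not well above background sets that tumour at the higher of its own level and the array's lowest level well above background (-5.58, -5.44 and -5.58) and is written as at least; it covers no spread between tumours.

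With 1 group of 3 tumours no test was made and no p-value is given; the number of arrays limits the precision. The 3 arrays lay on 1 slide in 1 scan and correlated at 0.985 to 0.986 over all probes, a description across probes. Members, lists and rules were chosen with earlier results of these data known. The first 3 genes of each list and up to 2 others with the largest range are named, as are the 10 largest ranges; other genes named were chosen after their values were seen. Some genes of the lists are not reported here. List genes Flg, Trac, Ighm and Prl2c2 were not matched on the array. Scores and counts were tested on simulated data. Quantile scaling and normexp (offset of 50) used limma 3.58.1 in R 4.3.3; tables and figures used Python 3.11.15, pandas 2.3.3, numpy 2.4.6 and matplotlib 3.10.9.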

Additional observations from a re-analysis of the deposited data

How the results depend on the processing

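No paired analysis was possible because only 1 group was described and no test was made. Of 37001 genes, those well above background numbered 22363 in all 3 tumours, 24312 above the 99th percentile of the negative control spots and 24907 in at least 1 tumour, and 22577 to 22998 with 1 tumour left out. The count of genes with a range over 1 was 3014. It was 385 with normexp background correction and quantile scaling, 1349 with genes well above background on all 3 arrays, 5774 with no filter on dim probes, 2105 with dim signals set at a floor, and 1405 to 1752 with 1 tumour left out, which by construction leaves 2 values per gene. Normexp with an offset of 50 draws dim values together. With it 39 of the list genes had a range over 1, in place of 123, and 6 lists a score range over 0.5, in place of 12, a limit chosen after the data were seen. The score range was then 1.38 for erythroid genes, 0.69 for hair follicle, 0.72 for pluripotency, 0.51 for mast cells and 0.16 for cardiac muscle; Myh6 and Myl7 still had ranges of 3.31 and 3.37. With genes detected on all 3 arrays the mast cell score range was 0.16 and the cardiac one 0.18, since Mcpt4, Cma1, Cpa3, Tbx20, Tbx5 and Nppb are then not scored. Among the 12 lists with the widest scores the highest tumour was the same in 10 to 12 under 6 alternatives, and the lowest in 11 or 12. Over all 42 lists the highest tumour was the same in 36 to 41. Leaving out the probes named Spag6 and Gcm1, chosen after seeing the data, moved none of the 6 scores of their lists beyond the spread between tumours. Depth of signal limits the dim genes: differences of genes near background in control 2, whose negative control spots were brightest, are known only as bounds.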

Other observations

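Lens crystallins, the structural proteins of the eye lens, were examined by gene name after Cryge was seen among the largest ranges. Of 16 genes on the array 14 were well above background in control 3, 8 in control 1 and 8 in control 2. The shares of all genes were 64.1%, 64.5% and 62.6%. Control 3 was highest in 11 of the 15 detected anywhere (34.2% of all genes). Cryba1, Cryba2, Crygb, Cryge, Crygf and Crygn passed in control 3 alone, so the filter fixed their place in that count. Cryaa, the lens alpha crystallin, stood at -4.66, -4.21 and -0.22, with all 3 signals well above background, 21.8-fold higher in control 3 than in control 1. The gamma crystallins Cryga (-4.38, -4.35 and -0.91), Crygc (-4.20, -4.22 and -0.90) and Crygd (-4.49, -4.90 and -1.39) stood 11.1-fold, 9.97-fold and 11.4-fold higher in control 3 than in the lowest tumour. Cryge was detected in control 3 alone (-7.83, -7.07 and -0.72), at least 26.2-fold above either other tumour. Gamma crystallin genes are similar in sequence, so signals of single members may be shared. Cryab, which muscle also makes, was bright in every tumour and highest in control 2 (4.47, 4.90 and 4.12), and Cryba4 (-2.44, -2.02 and -2.25) and Crybb3 (-4.28, -4.80 and -4.57) were level.

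The 10 largest ranges over all genes with a symbol were those of Bpifa3, Cryge, Prl3d2, Olfr1426, Hbb-y, Apol11b, Ighv1-33, Prl7a1, Slc7a9 and Trim38, between 5.89 and 7.36 on the log2 scale. Bpifa3 stood at -7.68, -7.55 and -0.32 and was detected in control 3 alone. Olfr1426 (-7.61, -1.33 and -7.46), Slc7a9 (-7.61, -1.80 and -7.71) and Trim38 (-7.76, -1.87 and -7.68) were detected in control 2 alone. Apol11b (-7.81, -6.11 and -1.73) and Ighv1-33 (-7.78, -7.66 and -1.83) were detected in control 3 alone. None of the 10 had another probe well above background in all 3 tumours, so each rests on 1 probe.

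The beta globin cluster gene Hbb-bh2 went against most other globins, with control 1 highest (-2.24, -5.60 and -7.48) and detected there alone. The dim globin gene Hbq1a was also highest in control 1 and detected there alone (-5.29, -5.61 and -5.89). Xist, the noncoding RNA of the inactive X chromosome, gave a low signal in every tumour (-4.42, -4.90 and -5.24), beside signals of the Y-linked genes Ddx3y (-2.89, -2.65 and -2.60), Eif2s3y (0.26, 0.19 and 0.54), Kdm5d (-2.84, -2.89 and -2.11) and Uty (-1.50, -1.57 and -0.92). All of these were well above background in all 3 tumours. The labels do not give the sex of the stem cells or of the hosts.

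Csf3r, a neutrophil receptor, was bright in every tumour (5.36, 5.09 and 5.22), at position 98.3%, while Ly6g was not well above background; Csf3r has 1 probe on the array. Sox5, a factor of cartilage and neurons, stood at 5.97, 5.49 and 5.59, and a second probe of Sox5 at -2.25, -2.66 and -2.58, so the probes of this gene disagree in signal and agree on the tumour that was highest.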
